A study of Mus musculus with 9 samples.

Results

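Levels of 8 transcripts of the LIM-homeodomain system were examined across the single-cell transcriptomes of mouse forelimb buds, namely those of the transcription factor genes Lhx2, Lhx9 and Lmx1b, of the adaptor genes Ldb1 and Ldb2, and of the LIM-only genes Lmo1, Lmo2 and Lmo4. These 8 genes were looked up by symbol among the 32289 features of the matrices, and each had 1 row in all 9 libraries. The libraries came from forelimb buds of embryos at E10.75 (37 to 39 somites), with 3 independent libraries of each of 3 genotypes, and each library was made from a pair of forelimb buds by 10x Genomics 3′ single-cell RNA sequencing. All embryos were on a Swiss Albino background. Wild-type (Wt) embryos carried both normal alleles of Grem1, the gene that encodes the BMP antagonist Gremlin1. E1C8Δ/Δ (EC1CRM8Δ/Δ) and E1C5Δ/Δ (EC1CRM5Δ/Δ) embryos were homozygous for deletions in its limb bud enhancer landscape. Both alleles share the EC1 deletion and differ in the further deletion, of CRM8 or of CRM5. For CRM8 the study saw no obvious enhancer activity in a reporter analysis. The deletions of both alleles are present in every cell of the embryo, not in the limb alone, and both alleles cause the loss of a digit. The comparison addresses how these genes are distributed over the early limb bud mesenchyme and whether their levels differ when the Grem1 domain is reduced.

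LIM-homeodomain proteins bind DNA through the homeodomain, and their paired LIM zinc-finger domains recruit LDB proteins, which self-associate and bridge transcription factors into larger complexes. LIM-only (LMO) proteins hold LIM domains without a homeodomain and occupy the same binding surface of LDB proteins, so that they can compete with LIM-homeodomain proteins or assemble complexes with other factors. In the limb bud, LHX2 and LHX9 are known to relay signals between the apical ectodermal ridge and the underlying mesenchyme, and LMX1B specifies dorsal identity.

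The 8 genes lie on 6 autosomes of the GRCm38 assembly. By the GENCODE annotation Lhx2 spans chr2:38339281-38369733 (+ strand), Lmx1b chr2:33560965-33640511 (-) and Lmo2 chr2:103957986-103981878 (+). Lhx9 spans chr1:138825186-138848577 (-), Lmo4 chr3:144188530-144205220 (-) and Ldb2 chr5:44472132-44799680 (-). Lmo1 spans chr7:109138572-109175207 (-) and Ldb1 chr19:46031570-46045214 (-). Libraries made from the 3′ end do not separate the isoforms of these genes, and values therefore refer to the sum of all transcripts of a gene.

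A window of 250 bases upstream of an annotated start is shown for Lhx2 and for Lmo1 because, of the 4 genes whose contrast between positions differed by genotype (Lhx2, Ldb2, Lmo1 and Lmo2, below), these are the ones with an entry in the sequence table. Sequences are those of RefSeq on GRCm38.p6, and capitals mark the 6-base motifs found by search of both strands, TAATTA (a homeodomain core, which reads the same on either strand) and GGCGCC (a GC-rich palindrome).
Lhx2, chr2:38339031-38339280, + strand: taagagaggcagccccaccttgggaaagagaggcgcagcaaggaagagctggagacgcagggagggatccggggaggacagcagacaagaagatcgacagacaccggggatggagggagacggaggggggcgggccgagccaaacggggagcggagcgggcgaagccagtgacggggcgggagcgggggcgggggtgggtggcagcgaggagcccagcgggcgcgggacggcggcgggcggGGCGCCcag
Lmo1, chr7:109175208-109175457, - strand: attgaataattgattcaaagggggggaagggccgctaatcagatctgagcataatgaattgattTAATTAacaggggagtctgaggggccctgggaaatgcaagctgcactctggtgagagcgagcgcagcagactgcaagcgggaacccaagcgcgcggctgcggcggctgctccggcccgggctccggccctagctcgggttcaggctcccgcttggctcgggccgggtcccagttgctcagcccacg
The Lmo1 window shown held TAATTA at 1 site and the Lhx2 window shown held GGCGCC at 1 site. The table lists 2 windows for each gene, and the other Lhx2 window (chr2:38351058-38351307) held neither motif. Among the 12 windows listed for 6 of the 8 genes (Lmo2 and Ldb2 had no entry), 2 held TAATTA and 4 held GGCGCC, whereas 4.84% and 9.59% of all 32851 windows of the same length did. Both windows with TAATTA are those of Lmo1, which overlap and share the same site, so these counts are not of independent windows. These matches describe letters in a window and were not compared with any binding measurement.

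The matrices held 133086 barcodes, of which 44654 were kept as single cells, and 34873 of these were mesenchymal. Mesenchymal cells were defined without any of the 8 genes, by at least 3 of the markers Prrx1, Prrx2, Tbx5, Pdgfra, Twist1 and Twist2. Cells with 3 or more markers of another lineage were left out, so cells with fewer such markers stayed in. Wt replicate 3 (705 mesenchymal cells) and E1C8Δ/Δ replicate 1 (466 cells) stood apart from the other 7 libraries (1731 to 6496 cells), and the alternatives include leaving out both. UMIs summed over mesenchymal cells and tested genes ranged from 16768255 to 243132471 per library. Pairs of libraries shared 2 to 172 cell barcodes, at most 0.901% of the smaller library. By their Xist and Y-chromosomal transcripts the 3 Wt libraries, E1C8Δ/Δ replicate 3 and E1C5Δ/Δ replicate 2 were male and the other 4 female, although Wt replicate 1 also held Xist at 21.9 CPM (counts per 1000000 UMIs). Genotype and sex overlap in this design, and a fit with sex as a covariate is therefore given for levels compared between genotypes. The contrasts between positions have no such fit. In the mesenchyme, summed markers of endothelium were at 1.97 to 5.55 CPM and those of muscle at 8.72 to 15.6 CPM in Wt, 18.9 to 32.8 CPM in E1C8Δ/Δ and 12.3 to 17.6 CPM in E1C5Δ/Δ.

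Grem1, the gene under the deleted enhancers, was measured first. Its mesenchymal level was 43.3, 28.9 and 32.1 CPM in the Wt libraries, 11.4, 11.8 and 14.2 CPM in E1C8Δ/Δ and 17.0, 16.2 and 25.0 CPM in E1C5Δ/Δ. All 6 mutant libraries lay below all Wt libraries, and the difference was -1.13 ± 0.14 (log2 fold change ± SE; adjusted p = 0.00494, edgeR's quasi-likelihood test with Benjamini-Hochberg adjustment over all genes).

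All 8 genes were detected in the mesenchyme of every library, at very different levels. Levels below are CPM, UMIs of a gene per 1000000 UMIs summed over the mesenchymal cells of a library, which in 3′ libraries do not depend on transcript length. Among the transcription factors, Lhx9 was highest, with 256, 191 and 188 CPM in the Wt libraries. Lhx2 was at 123, 95.2 and 103 CPM in Wt and Lmx1b at 53.6, 52.5 and 50.8 CPM. Of the adaptors, which both bridge LIM-domain proteins, Ldb1 was at 78.6, 78.8 and 84.1 CPM in Wt and Ldb2 at 28.8, 23.4 and 30 CPM. Among the LIM-only genes, Lmo4 was highest (191, 197 and 169 CPM in Wt), followed by Lmo1 (86.5, 72.6 and 57.3 CPM) and Lmo2 (20.2, 19.5 and 28.3 CPM). The Wt ranges of Lhx9 and Lmo4 overlapped, those of Ldb1 and Lmo1 overlapped, and those of Ldb2 and Lmo2 overlapped.

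**Figure D1:**
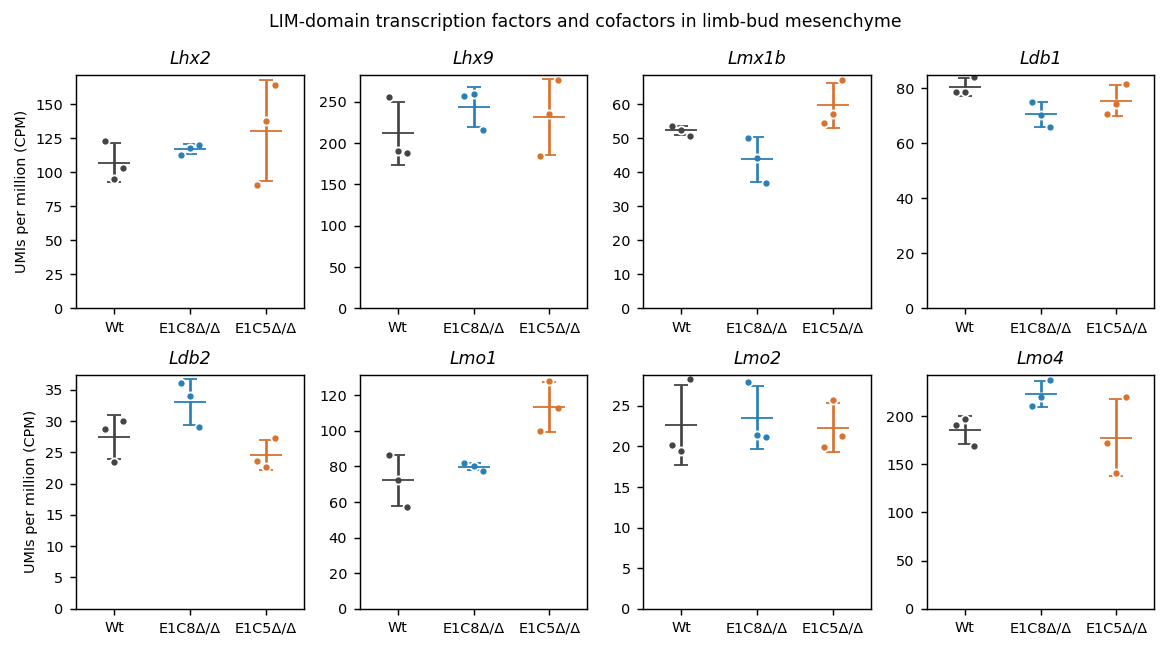
Level of each of the 8 genes in the mesenchyme of every library, in CPM (linear axis), by genotype. Points are libraries and bars show the mean ± SD of 3 libraries per genotype. The Lmo1 points of E1C5Δ/Δ (100 to 128 CPM) lie above all Wt points (57.3 to 86.5 CPM), and the Lmx1b points of E1C8Δ/Δ (36.9 to 50.2 CPM) lie below all E1C5Δ/Δ points (54.6 to 67.2 CPM).

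The distribution of the genes within the Wt mesenchyme was examined next. Cells were assigned to 11 positions by marker genes that are not among the 8, after each cell had been thinned to 10000 UMIs. Positions were Shh (posterior signalling centre), Hoxa13 plus Hoxd13 (autopod), Asb4 with Msx1 (peripheral progenitors), Pax1 (anterior-proximal), Gsc with Creb5, and Sox9 with Col2a1 (osteochondrogenic). Further positions were Grem1, Osr1 without Shh, Sostdc1 with Hgf, Hoxa11 without Hoxa13, and Emx2 (proximal). For Hoxa13 plus Hoxd13 the UMIs of both genes were added and had to reach 2, so cells with either gene alone could pass. Markers joined by "with" each had to reach their own minimum. The positions overlap, with 41.07 to 48.65% of mesenchymal cells of a library in 1 position and 23.97 to 39.8% in none, so the 11 comparisons are not independent of each other. The study's own signature of peripheral progenitors includes Lhx2 and Lhx9 together with Asb4, and the high levels of both genes at that position are therefore not independent results. Its score for distal cells likewise includes Lmo2, so a high level of Lmo2 at distal positions is not an independent result either. Several position markers, such as Hoxa13, Hoxd13, Gsc and Emx2, are also genes by which the study described its cell clusters. Inside each position the level was compared with that in all other mesenchymal cells of the same libraries. Of 88 such comparisons in Wt, 68 passed the threshold of 0.05 on the adjusted p (edgeR, library as a block), 28 higher and 40 lower inside, while 28.7% of all gene-by-position comparisons passed it, 13.8% higher and 14.8% lower (3.61 to 53.1% in either direction, depending on the position).

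**Figure D2:**
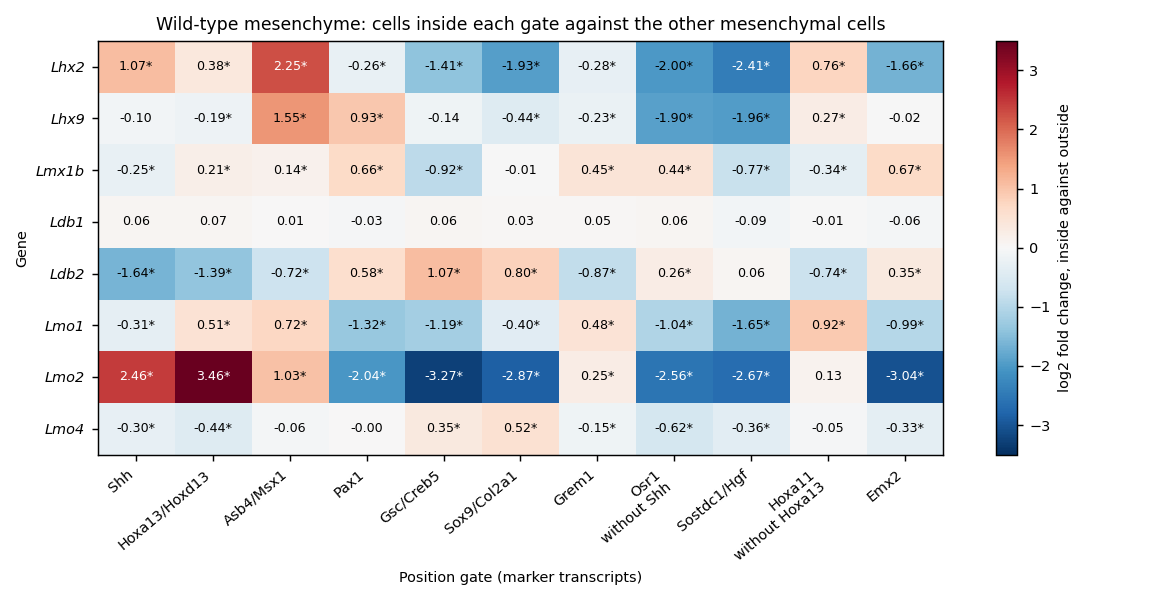
Differences of the 8 genes (rows) between the cells of each of 11 positions (columns) and all other mesenchymal cells of Wt libraries, as log2 fold changes (colour scale). Asterisks mark adjusted p values under 0.05. Lhx2 ranges from -2.41 to 2.25 and Lmo2 from -3.27 to 3.46, whereas the Ldb1 row stays between -0.09 and 0.07. The Lmo2 values of the Emx2 and Gsc/Creb5 cells rest on mean levels of 2.14 and 2.16 CPM. Over the alternatives they ranged from -3.31 to -1.88 and from -3.6 to -2.14.

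Lhx2 was highest in the peripheral Asb4/Msx1 cells. The 3 Wt libraries had 373, 353 and 364 CPM inside this position and 85.1, 69.1 and 71.1 CPM outside, without overlap (log2 2.25 ± 0.06). The Shh position followed with 250 and 201 CPM inside against 118 and 92.2 CPM outside (1.07 ± 0.06; Wt replicate 3 had too few Shh cells). The Hoxa11 (131 to 177 CPM) and Hoxa13/Hoxd13 (117 to 161 CPM) positions overlapped each other, and both were above the remaining mesenchyme (0.76 ± 0.08 and 0.38 ± 0.07), although the latter was 0.11 (adjusted p = 0.166) with positions on all UMIs. All 7 other positions were lower, down to 15.4 and 27.6 CPM in the Sostdc1/Hgf cells (-2.41 ± 0.10), and the mean level differed 16.9-fold between the highest and the lowest position. The lower level in Grem1 cells (-0.28 ± 0.04) was -0.08 (adjusted p = 0.16) with positions on all UMIs.

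Lhx9, the close relative of Lhx2, shared the peripheral maximum but differed at other positions. The Asb4/Msx1 cells had 556, 469 and 525 CPM of Lhx9 inside and 211, 163 and 147 CPM outside (1.55 ± 0.06). The Pax1 cells came second with 462, 355 and 316 CPM against 243, 178 and 174 CPM (0.93 ± 0.07), a position at which Lhx2 differed by -0.26 ± 0.08, a call that held in 11 of 17 alternatives and was lost without Wt replicate 2 (-0.30, adjusted p = 0.0873) or 3 (-0.14, adjusted p = 0.246), without both small libraries (-0.13, adjusted p = 0.211) and with positions on all UMIs (0.04, adjusted p = 0.855). In the Shh cells, where Lhx2 was higher than elsewhere, the difference of Lhx9 was -0.10 ± 0.06 and did not pass the threshold (adjusted p = 0.235). In the Hoxa13/Hoxd13 cells Lhx9 was lower than elsewhere (-0.19 ± 0.04), a call lost without Wt replicate 1 (-0.13, adjusted p = 0.0601). The positions of Osr1 without Shh (68.5, 51.1 and 83.9 CPM) and Sostdc1/Hgf (75.8 and 43.8 CPM) were lowest and overlapped each other.

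Lmx1b varied least over the positions among the transcription factor genes. Its highest levels were in the Emx2 cells (86.4, 83.4 and 77.1 CPM inside against 51.7, 49.6 and 49.5 CPM outside; 0.67 ± 0.05) and in the Pax1 cells (86.9, 81.3 and 63.9 CPM; 0.66 ± 0.06), and these ranges overlapped. It was lowest in the Gsc/Creb5 cells with 27.2, 31.8 and 31.9 CPM (-0.92 ± 0.08) and in the Sostdc1/Hgf cells with 30.2 and 32.1 CPM (-0.77 ± 0.10). The highest and the lowest mean differed 2.72-fold.

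The adaptors differed from each other. Ldb1, which is known to be required widely for the activity of LIM-homeodomain proteins, passed the threshold at 0 of 11 positions (edgeR; 0 also at an unadjusted p under 0.05 and 0 by DESeq2; log2 differences of -0.09 to 0.07), and its Wt means lay between 74.7 and 86.3 CPM. Ldb2 was higher at 5 positions and lower at 5. The Gsc/Creb5 cells had 65.8, 48.8 and 51.2 CPM of Ldb2 inside and 26.9, 22.1 and 28.7 CPM outside (1.07 ± 0.08), whereas the Shh cells had 7.47 and 9.62 CPM against 29.7 and 23.8 CPM (-1.64 ± 0.13). In the Hoxa13/Hoxd13 cells Ldb2 was at 11.8, 10.2 and 9.27 CPM inside and 30.7, 24.6 and 33.0 CPM outside (-1.39 ± 0.08). Ldb2 was thus low at the distal and posterior positions at which Lmo2 was high.

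Of the LIM-only genes, Lmo2 had the steepest pattern of all 8 genes, with a 59.0-fold difference between the highest and the lowest position. The lowest, the Emx2 cells (0.559 to 3.04 CPM), overlapped with muscle (2.34 to 4.14 CPM) and epithelium (1.91 to 6.22 CPM) over all libraries. The size of this ratio is therefore poorly determined. The Hoxa13/Hoxd13 cells had 105, 110 and 163 CPM inside and 10.9, 11.0 and 9.27 CPM outside (3.46 ± 0.09), and the Shh cells had 101 and 94.1 CPM against 17.1 and 17.4 CPM (2.46 ± 0.08). Lmo2 in the Asb4/Msx1 cells was at 35.0, 36.4 and 57.3 CPM (1.03 ± 0.11). At the Pax1, Osr1, Sox9/Col2a1, Sostdc1/Hgf, Gsc/Creb5 and Emx2 positions no Wt library exceeded 8.21 CPM, and the lowest value was 0.559 CPM in the Emx2 cells of Wt replicate 3. Lmo2 is also a gene of endothelial and blood cells, so markers of these lineages were summed in the same cells. The 6 endothelial markers together were at 2.02 to 5.14 CPM inside and 2.08 to 4.01 CPM outside the Hoxa13/Hoxd13 position in Wt, and the 6 erythroid markers at 3.02 to 7.24 CPM inside and 4.32 to 8.44 CPM outside.

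Lmo1 was higher at 4 positions and lower at 7. Its highest levels were in the Hoxa11 cells (137, 127 and 88.3 CPM inside against 77.7, 63.6 and 53.4 CPM outside; 0.92 ± 0.09) and the Asb4/Msx1 cells (137, 113 and 84.5 CPM; 0.72 ± 0.07), and these overlapped with the Hoxa13/Hoxd13 and Grem1 cells. In Shh cells Lmo1 was at 61.7 and 68.9 CPM inside and 87.5 and 72.7 CPM outside (-0.31 ± 0.07), a call that held in 11 of 15 alternatives and was lost without Wt replicate 1 (-0.11, adjusted p = 0.717) and with DESeq2 (adjusted p = 0.0645). Lmo4 was abundant everywhere and differed least of the LIM-only genes (2.02-fold between positions). It was higher in Sox9/Col2a1 cells, with 260, 257 and 247 CPM inside and 177, 182 and 143 CPM outside, and in Gsc/Creb5 cells (0.35 ± 0.05), and it was lowest in Osr1 cells without Shh (138, 139 and 101 CPM; -0.62 ± 0.04).

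**Figure D3:**
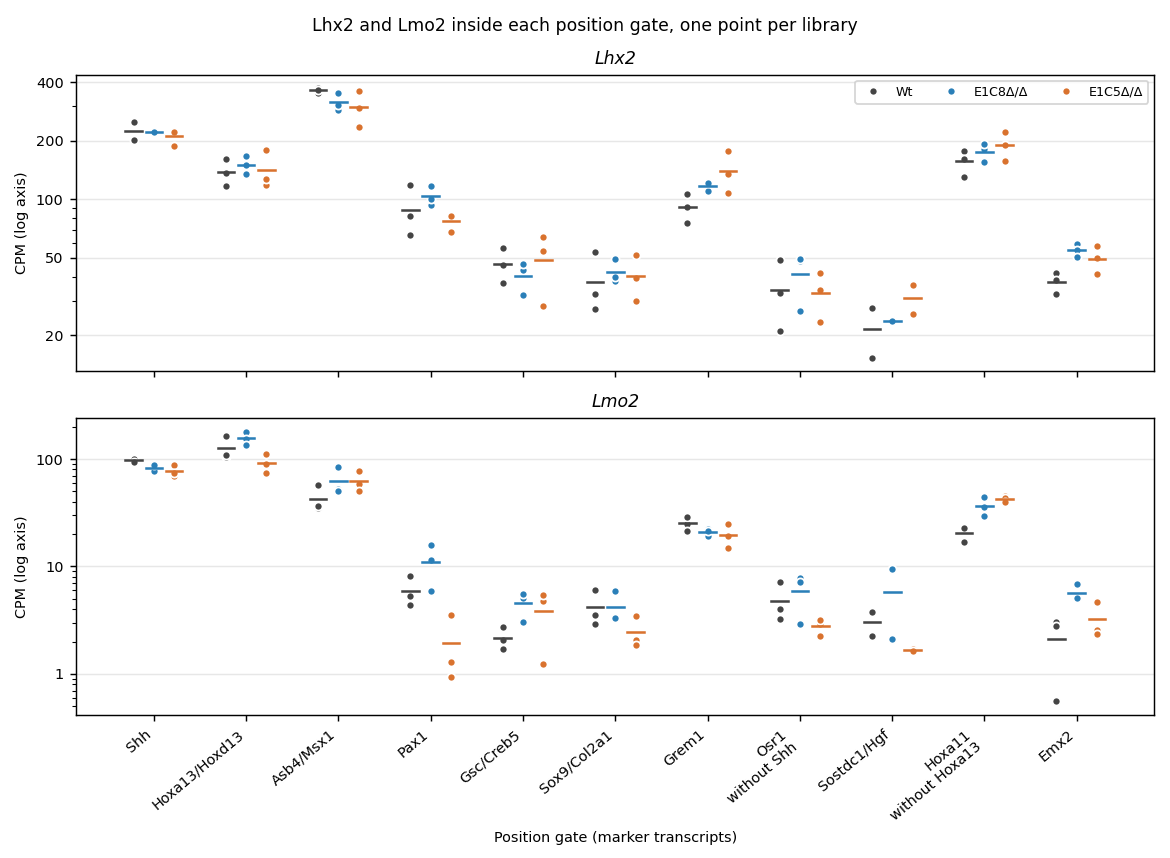
Levels of Lhx2 and Lmo2 in the cells of each position for every library with enough cells, in CPM on a log axis, coloured by genotype. Points are libraries and lines show the mean of a genotype. In Wt, Lhx2 is highest in Asb4/Msx1 cells (353 to 373 CPM) and Lmo2 in Hoxa13/Hoxd13 cells (105 to 163 CPM).

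The joint distribution of the genes was then examined in single cells of Wt libraries, comparing cells with at least 1 UMI of a gene among 10000 with cells without one. In cells with Lhx9, Lhx2 was higher by 2.21 ± 0.04 on the log2 scale, Lmo2 by 1.44 ± 0.06 and Lmo1 by 0.98 ± 0.07, whereas Ldb2 was lower (-0.23 ± 0.05). Over the alternatives these values ranged from 2.1 to 3.15, 1.3 to 2.93, 0.9 to 1.22 and -0.39 to -0.14. The Ldb2 call held in 16 of 17. Of the 7 other genes, 5 passed the threshold in cells with Lhx9, beside 20.8% of all genes, and 5 did in cells with Lhx2, beside 37.5%. In cells with Lmo2, Ldb2 was lower (-1.31 ± 0.07) and Lhx2 higher (0.95 ± 0.08), with 6 of 7 genes past the threshold beside 39.8% of all genes. In cells with Lmx1b the differences of Lhx2 (0.05 ± 0.04, adjusted p = 0.578) and Lhx9 (0.11 ± 0.04, adjusted p = 0.115) did not pass the threshold, while Lmo2 was lower (-0.29 ± 0.06). Ldb1 passed the threshold in cells with 0 of the 7 other genes (edgeR; 0 also at an unadjusted p under 0.05 and 0 by DESeq2; differences of -0.03 to 0.03). Both Lhx2 and Lhx9 were detected in 32.5 ± 3.66% (SD, n = 3) of Wt mesenchymal cells, Lhx9 alone in 28.7 ± 1.65% and Lhx2 alone in 7.69 ± 1.39%.

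A further feature appeared when the Wt means over the 11 positions were correlated with those of the 8767 genes of at least 10 CPM at 1 or more positions, leaving out the markers that define the positions. For all 3 transcription factor genes the gene with the most similar pattern was, among the genes compared, the nearest one on the chromosome. For Lhx2 it was Dennd1a (chr2:37798991-38287390, - strand), whose annotated gene body ends 51.9 kb before Lhx2 (Pearson's r = 0.967 on log2 CPM), for Lhx9 it was 2310009B15Rik (chr1:138851983-138856852, - strand) at 3.41 kb (r = 0.981), and for Lmx1b it was C130021I20Rik (chr2:33641193-33646354, + strand) at 0.682 kb (r = 0.988). C130021I20Rik was at 76.5 CPM in the Emx2 cells and 23.3 CPM in the Gsc/Creb5 cells, beside 82.3 and 30.3 CPM of Lmx1b. 2310009B15Rik spanned a smaller range, from 94.8 CPM in the Asb4/Msx1 cells to 50 CPM in the Osr1 cells without Shh, and Dennd1a ranged from 31.0 CPM in the Asb4/Msx1 cells to 10.5 CPM in the Sostdc1/Hgf cells.

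The neighbours of Lhx9 and Lmx1b also had rank 1 in E1C8Δ/Δ (r = 0.972 and 0.983 among 8836 genes) and in E1C5Δ/Δ (r = 0.951 and 0.986 among 8612 genes). Dennd1a had rank 3 for Lhx2 in E1C8Δ/Δ (r = 0.959) and rank 18 in E1C5Δ/Δ (r = 0.954). For the 5 cofactor genes the rank of the nearest compared gene in Wt was between 43 (Lmo4 and Gm43445, which overlap) and 6798 (Ldb1 and Pprc1, which overlap). For Lmo1 and Ldb2 this gene lay 196 and 246 kb away. Nearest genes were looked up after these leading genes had been seen. The correlations are across 11 overlapping groups of cells from the same libraries and describe these data only, and reads that run past the end of a gene or from the opposite strand were not separated from those of the neighbour.

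Other genes with similar patterns were not the nearest genes. They were Nme4 and Vamp3 for Lhx2, Stx18 and Aspm for Lhx9, and Rabif for Lmx1b (r = 0.892 to 0.965). For the cofactors the leading 3 were Eps15l1, Snx17 and Oaz2 (Ldb1), Jund, Cd248 and Rhod (Ldb2), Frzb, Mfge8 and Cdh11 (Lmo1), Imp4, Dnmt3b and Gpx1 (Lmo2), and Vasn, Sox5 and Prdm16 (Lmo4), with r between 0.906 and 0.988. Among the 8 genes themselves Lhx2 was closest to Lmo2 (r = 0.841), and Lmo2 and Ldb2 were most opposed (r = -0.928).

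Levels were next compared between genotypes over the whole mesenchyme. With both mutants together, 0 of the 8 genes passed the threshold by edgeR's quasi-likelihood test, beside 2.3% of 16235 tested genes. At an unadjusted p under 0.05 there was 1 of 8, beside 3198 of 16235 genes. This was Lmo1 (log2 0.42 ± 0.12, adjusted p = 0.0993), which DESeq2 called (0.42, adjusted p = 0.0216). The median difference of the 8 genes was 0.10, and that of all genes was -0.01. Lhx2 had 113, 118 and 120 CPM in E1C8Δ/Δ and 90.5, 138 and 164 CPM in E1C5Δ/Δ, and both ranges overlapped that of Wt (0.22 ± 0.14, adjusted p = 0.40). For Lhx9 (0.18 ± 0.12), Lmo2 (0.04 ± 0.13) and Lmo4 (0.11 ± 0.12) the ranges of all mutants together and Wt overlapped, while the 211, 220 and 238 CPM of Lmo4 in E1C8Δ/Δ alone lay above Wt.

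The mutant alleles differed in Lmo1 and Lmx1b. Their libraries also differed in depth. Median UMIs per kept cell were 26903, 16806 and 23163 in E1C8Δ/Δ and 41446, 30314 and 32044 in E1C5Δ/Δ. In Wt they were 31069, 33377 and 47529. Cells removed for markers of several lineages were 2.27 to 4.09% in E1C8Δ/Δ and 0.75 to 1.0% in E1C5Δ/Δ. Apart from the alternatives with thinned sums and mixed cells kept, the part of these differences was not tested. In E1C5Δ/Δ, Lmo1 rose to 100, 128 and 113 CPM, above all Wt libraries (0.72 ± 0.14, adjusted p = 0.032, edgeR), and it was the only one of 8 genes past the threshold beside 1.52% of all genes, or 0.376% of all genes counting higher ones alone. In E1C8Δ/Δ the 81.8, 80.2 and 77.7 CPM of Lmo1 lay within the Wt range. The E1C5Δ/Δ call was lost with sex as a covariate (0.83, adjusted p = 0.104) and with the replicate number as a block (0.72, adjusted p = 0.0577). It was lost without Wt replicate 3 (0.57, adjusted p = 0.0646), without E1C5Δ/Δ replicate 2 (0.60, adjusted p = 0.101) and without both small libraries (0.57, adjusted p = 0.109). It was also lost with thinned sums, and without Wt replicate 2, E1C5Δ/Δ replicate 1, E1C8Δ/Δ replicate 1 or E1C8Δ/Δ replicate 2. Its direction held in all of these (0.57 to 0.85). With the sex covariate 14 of all 16235 genes passed in this comparison, beside 247 without it.

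Lmx1b lay on opposite sides of Wt in the mutants. E1C8Δ/Δ had 50.2, 44.2 and 36.9 CPM, all below Wt, but without passing the threshold (-0.29 ± 0.10, adjusted p = 0.0802; DESeq2 gave an adjusted p of 0.0446). E1C5Δ/Δ had 54.6, 57.1 and 67.2 CPM, all above Wt (0.25 ± 0.09, adjusted p = 0.266). In E1C8Δ/Δ against Wt 0 of the 8 genes passed the threshold by edgeR, beside 9.17% of all genes. At an unadjusted p under 0.05 there were 3 of 8, beside 4228 of 16235 genes, while DESeq2 called Lmx1b and Ldb1 (-0.22, adjusted p = 0.0457).

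Between the alleles directly, Lmx1b was 0.54 ± 0.10 higher in E1C5Δ/Δ than in E1C8Δ/Δ (adjusted p = 0.00982, edgeR) without overlap, and this call held in all 19 alternatives (0.44 to 0.61, adjusted p at most 0.0492). Lmo1 was also higher in E1C5Δ/Δ than in E1C8Δ/Δ (0.59 ± 0.14, adjusted p = 0.0264), a call that was lost without E1C5Δ/Δ replicate 2 (0.48, adjusted p = 0.0835) and without each E1C8Δ/Δ library (adjusted p of 0.0747 to 0.0956). Ldb2 was lower in E1C5Δ/Δ (23.7, 22.7 and 27.3 CPM) than in E1C8Δ/Δ (36.1, 34.0 and 29.0 CPM; -0.34 ± 0.10) with an adjusted p of 0.05, at the threshold, and past it in only 6 of 19 alternatives. With sex as a covariate the adjusted p was 0.033 for Lmo1 (0.59) and 0.056 for Ldb2 (-0.34). These 3 calls of 8, 2 higher and 1 lower, compare with 9.17% of all genes, 5.14% higher and 4.03% lower. Of the 7 lists of markers of other lineages summed in the mesenchyme, those of erythroid cells, megakaryocytes and neural crest overlapped between the alleles, and the other 4 did not. The 6 muscle markers summed to 12.3 to 17.6 CPM in E1C5Δ/Δ and 18.9 to 32.8 CPM in E1C8Δ/Δ, and the 6 endothelial markers to 1.97 to 2.38 CPM and 3.10 to 5.55 CPM, with all 12 detected in every library. Epithelial markers summed to 9.31 to 11.9 CPM and 13.8 to 18.6 CPM and myeloid ones to 7.32 to 9.6 CPM and 11.9 to 14.4 CPM. Their part in these differences was not tested.

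**Figure D4:**
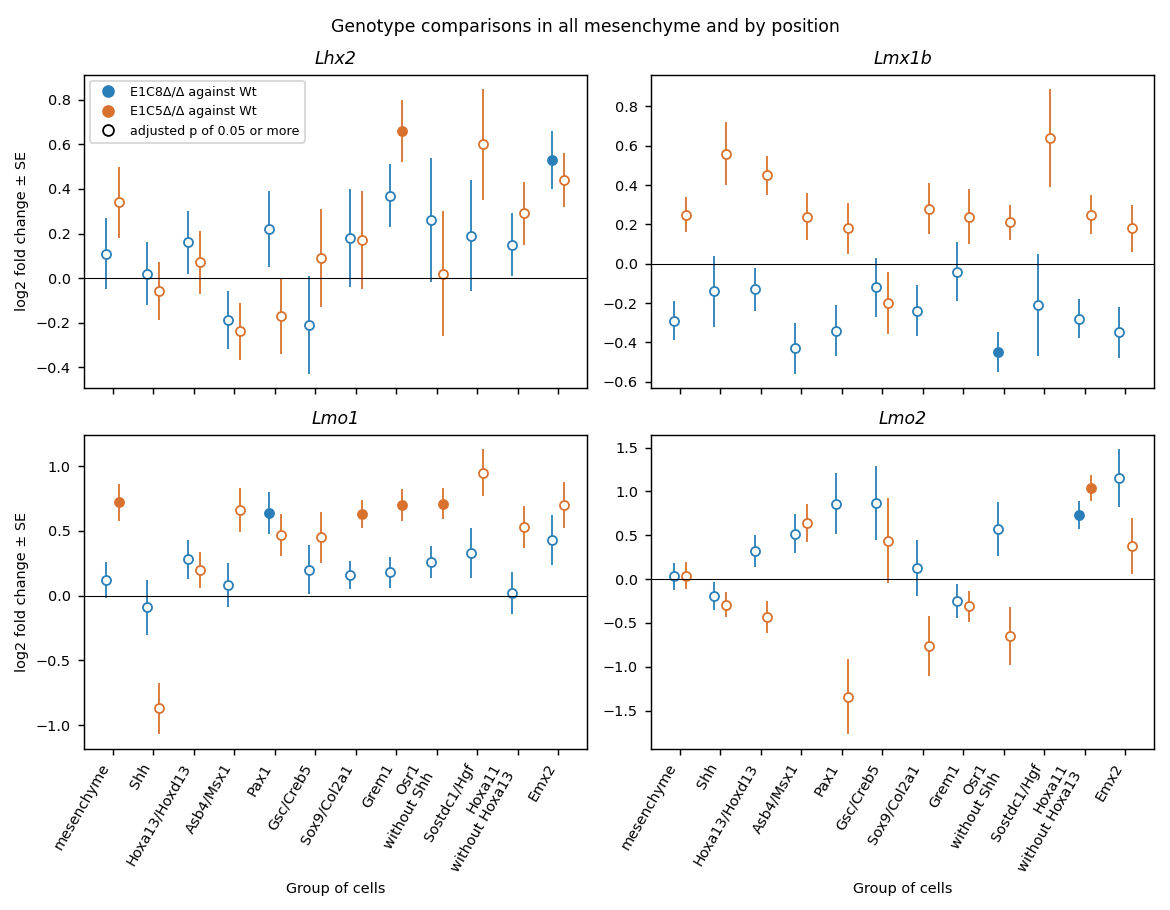
Differences of E1C8Δ/Δ and E1C5Δ/Δ from Wt for Lhx2, Lmx1b, Lmo1 and Lmo2 in the whole mesenchyme and inside each of 11 positions, as log2 fold change ± SE. Filled points have an adjusted p under 0.05. The Lmo2 points of the Hoxa11 position are filled for both alleles (0.73 and 1.04), and the Lmx1b points of E1C8Δ/Δ lie between -0.45 and -0.04 at all 11 positions.

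Inside the positions, 1 of 87 comparisons of both mutants with Wt passed the threshold, beside 0.84% of all gene-by-position comparisons. This was Lmo2 in the cells with Hoxa11 but without Hoxa13, which mark the prospective zeugopod. The level was 22, 23.0 and 16.8 CPM in Wt, 44.7, 29.8 and 35.5 CPM in E1C8Δ/Δ and 45.2, 43.5 and 39.4 CPM in E1C5Δ/Δ. All 6 mutant libraries lay above all Wt libraries (0.88 ± 0.14, adjusted p = 0.0122, edgeR), and each allele passed on its own (0.73 ± 0.16, adjusted p = 0.0161, and 1.04 ± 0.15, adjusted p = 0.0116). The value was 0.94 with sex as a covariate (adjusted p = 0.0883) and 0.74 without both small libraries (adjusted p = 0.0782), so neither passed. The male mutant libraries, E1C8Δ/Δ replicate 3 and E1C5Δ/Δ replicate 2, were at 35.5 and 43.5 CPM, beside 16.8 to 23.0 CPM in the Wt libraries, which were all male. Beyond the covariate fit, the part of sex in this difference was not tested. The position itself held 10.9 to 14.6% of mesenchymal cells in Wt, 15.4 to 16.9% in E1C8Δ/Δ and 16.1 to 16.4% in E1C5Δ/Δ. Wt and mutants did not overlap in this share. The Hoxa13/Hoxd13 position held means of 8.76% in Wt, 5.57% in E1C8Δ/Δ and 4.8% in E1C5Δ/Δ. The study reports lower Hoxa13 and Hoxd13 expression in both mutants, and the Hoxa11 position did not exclude cells with Hoxd13. Its cells need therefore not be equivalent between genotypes, and the part of this in the difference was not tested. Endothelial markers summed in these cells were at 2.69 to 4.70 CPM in Wt, 2.5 to 5.12 CPM in E1C8Δ/Δ and 1.71 to 2.87 CPM in E1C5Δ/Δ. Erythroid markers, at 2.24 to 8.37, 1.56 to 4.08 and 1.58 to 8.48 CPM, overlapped as well. The 5 myeloid markers were at 8.92 to 10.1 CPM in Wt, 11.6 to 14.1 CPM in E1C8Δ/Δ, above Wt without overlap, and 7.75 to 10.1 CPM in E1C5Δ/Δ, and their part in the Lmo2 difference was not tested.

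Of the comparisons of E1C8Δ/Δ with Wt, 7 of 87 passed, 6 higher and 1 lower, beside 4.6% of all, 1.87% higher and 2.73% lower. This share ranged from 0.745% in Sostdc1/Hgf cells to 9.15% in Hoxa11 cells. Higher were Lhx2 in Emx2 cells (58.8, 54.9 and 50.4 CPM against 41.8, 32.8 and 38.5 CPM in Wt; 0.53 ± 0.13), Lhx9 and Ldb2 in Hoxa13/Hoxd13 cells (0.43 ± 0.11 and 0.59 ± 0.16), Ldb2 in Grem1 cells (0.60 ± 0.16), Lmo1 in Pax1 cells (0.64 ± 0.16) and Lmo2 in Hoxa11 cells. Lmx1b was lower in Osr1 cells without Shh, with 50.5, 52.4 and 46.6 CPM against 71.8, 68.8 and 60.5 CPM in Wt (-0.45 ± 0.10, adjusted p = 0.0199). None of these groups overlapped with Wt. Myeloid markers summed in the Osr1 cells were at 11.8 to 14.1 CPM in E1C8Δ/Δ and 8.86 to 9.61 CPM in Wt. Those of endothelium and erythroid cells overlapped there. The part of such cells in the Lmx1b difference was not tested. All 7 calls were lost in some alternatives, and those other than Lmo2 in Hoxa11 cells held in 6 to 11 of 19. Without both small libraries the call of Lmx1b held (-0.52, adjusted p = 0.0309) and the other 6 did not (0.41 to 0.54, adjusted p of 0.0781 to 0.176).

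In E1C5Δ/Δ against Wt, 5 of 87 comparisons passed, all higher, beside 0.558% of all and 0.169% counting higher ones alone. Lmo1 passed in the Sox9/Col2a1 cells with 84.7, 103 and 89.2 CPM against 63.8, 58.3 and 61.1 CPM in Wt (0.63 ± 0.11, adjusted p = 0.0115), a call that held in all alternatives other than the sex covariate (0.62, adjusted p = 0.142). It also passed in the Grem1 cells (149, 156 and 140 CPM against 107, 96.1 and 78.6 CPM; 0.70 ± 0.12) and in the Osr1 cells without Shh (0.71 ± 0.12). These calls held in 14 and 13 of 19 alternatives. The Sox9/Col2a1 position held 19.1 to 26.5% of mesenchymal cells in Wt and 9.23 to 15.7% in E1C5Δ/Δ. The Osr1 position held 13.1 to 16.9% and 8.55 to 13.0%. The part of these shares in the differences was not tested. Lhx2 was higher in the Grem1 cells, with 108, 135 and 177 CPM against 107, 75.4 and 91.2 CPM (0.66 ± 0.14, adjusted p = 0.0435), although the lowest E1C5Δ/Δ library was close to the highest Wt library, and this call held in 5 of 19 alternatives. Lmo2 in Hoxa11 cells was the fifth. With sex as a covariate 0 of these 5 calls and 0 of the 7 of E1C8Δ/Δ held by edgeR (adjusted p of 0.0715 to 0.231 and 0.057 to 0.346). Few genes of any kind passed with this covariate. Over the whole mesenchyme, calls among all 16235 genes fell from 247 to 14 for E1C5Δ/Δ and from 1488 to 136 for E1C8Δ/Δ against Wt.

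Between the alleles, 14 of 87 comparisons passed, 9 higher and 5 lower in E1C5Δ/Δ, beside 4.28% of all, 2.35% higher and 1.93% lower (0.408 to 8.42% by position). Lmx1b was higher in E1C5Δ/Δ at 6 positions (0.52 to 0.66), and in the Osr1 cells without Shh (72.6, 73.8 and 81.1 CPM against 50.5, 52.4 and 46.6 CPM in E1C8Δ/Δ; 0.66 ± 0.10) the call held in all 19 alternatives. Lmo1 was higher at 3 positions (0.45 to 0.52). Lmo2 was lower at 3, among them the Pax1 cells, in which it was at 3.54, 0.947 and 1.30 CPM in E1C5Δ/Δ and 15.9, 11.4 and 5.89 CPM in E1C8Δ/Δ (-2.19 ± 0.42, -3.09 to -1.36 over the alternatives). The E1C5Δ/Δ levels were no higher than those of muscle (2.34 to 4.14 CPM) and epithelium (1.91 to 6.22 CPM), so the size of this difference is poorly determined. Ldb2 in Asb4/Msx1 cells (-0.70 ± 0.16) and Lhx9 in Hoxa13/Hoxd13 cells (-0.44 ± 0.11) were also lower in E1C5Δ/Δ. Markers of endothelium, a lineage with high Ldb2 and Lmo2, summed to 1.56 to 2.87 CPM in E1C5Δ/Δ and 3.69 to 7.56 CPM in E1C8Δ/Δ in the Asb4/Msx1 cells, and to 1.11 to 2.6 CPM and 3.52 to 5.35 CPM in the Hoxa13/Hoxd13 cells. Those of myeloid cells summed to 7.21 to 8.9 CPM and 11.5 to 14.2 CPM, and to 4.35 to 8.05 CPM and 9.76 to 14.1 CPM, again without overlap. In Pax1 cells both lists overlapped between the alleles, and in Osr1 cells the endothelial one did. The part of these cells was not tested. With sex as a covariate 10 of the 14 calls held. Apart from Lmx1b in Osr1 cells, each of the 14 was lost in some alternatives. The other 5 of Lmx1b held in 9 to 17 of 19, those of Lmo1 in 9 to 12, and those of Lmo2 in 9 (Osr1 cells), 12 (Hoxa13/Hoxd13 cells) and 15 (Pax1 cells). Ldb2 held in 14 and Lhx9 in 12.

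Whether the contrast between a position and the rest of the mesenchyme itself differed in the mutants was tested as an interaction. It did in 10 of 88 comparisons, beside 0.494% of all gene-by-position comparisons (0.0288 to 2.67% by position), and 8 of these 10 concerned Lhx2 or Lmo2. For Lhx2 the peripheral maximum was flatter in the mutants. Inside Asb4/Msx1 cells Lhx2 was at 353 to 373 CPM in Wt, at 288, 306 and 352 CPM in E1C8Δ/Δ and at 235, 295 and 359 CPM in E1C5Δ/Δ, while outside it was at 69.1 to 85.1 CPM in Wt, 80.2 to 89.1 CPM in E1C8Δ/Δ and 75.7 to 125 CPM in E1C5Δ/Δ. The contrast of the mutants minus that of Wt was -0.53 ± 0.07 on the log2 scale (adjusted p = 0.000378), and this held in all 17 alternatives (-0.60 to -0.33). The male mutant libraries had 352 and 295 CPM inside and 80.2 and 112 CPM outside, and the part of sex in this contrast was not tested. In Grem1 cells the contrast of Lhx2 was larger by 0.36 ± 0.05 than in Wt, where Lhx2 had been lower inside than outside, and this also held in all 17 alternatives. This position is defined by the targeted gene itself, and its cells were not equivalent between genotypes: they made up 14.8 ± 3.28% of mesenchymal cells in Wt, 7.55 ± 0.976% in E1C8Δ/Δ and 13.0 ± 2.90% in E1C5Δ/Δ, with mean Grem1 levels inside of 170, 107 and 79.0 CPM. The share of mesenchymal cells in the Asb4/Msx1 position was 8.86 ± 1.86% in Wt, 12.1 ± 2.19% in E1C8Δ/Δ and 11.2 ± 3.37% in E1C5Δ/Δ (mean ± SD, n = 3). The study reports that Asb4, Msx1 and Lhx2 are all raised in autopodial and posterior cells of both mutants. The cells of this position need therefore not be equivalent between genotypes, and its Lhx2 contrast is not independent of the study's result. The part of this in the contrasts was not tested.

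For Lmo2 the contrast was smaller in the mutants at 3 positions and larger at 2. In Hoxa13/Hoxd13 cells the contrast of the mutants minus that of Wt was -0.67 ± 0.11. There the level inside was 180, 154 and 134 CPM in E1C8Δ/Δ and 90.1, 112 and 74.1 CPM in E1C5Δ/Δ, which straddled the Wt range, whereas the level outside was 14.5 to 15.4 CPM in E1C8Δ/Δ and 16.7 to 21.4 CPM in E1C5Δ/Δ, all above the 9.27 to 11.0 CPM of Wt. The contrast grew in Hoxa11 cells without Hoxa13 (0.93 ± 0.13) and in Asb4/Msx1 cells (0.79 ± 0.13), where the mutants had 50 to 83.6 CPM inside and overlapped with the 35.0 to 57.3 CPM of Wt. All 3 of these calls were lost with DESeq2 (adjusted p = 0.0614 for Hoxa13/Hoxd13, 0.147 for Hoxa11 and 0.0925 for Asb4/Msx1), and that of Asb4/Msx1 also without Wt replicate 1 (0.74, adjusted p = 0.067). It was smaller in Shh cells (-0.51 ± 0.10) and Grem1 cells (-0.44 ± 0.09), but these calls held in only 11 of 15 and 10 of 17 alternatives, and both were lost with DESeq2 (adjusted p = 0.498 and 0.275) and without Wt replicate 1 (adjusted p = 0.109 and 0.222). The Hoxa13/Hoxd13 cells made up 8.76 ± 1.49% of mesenchymal cells in Wt, 5.57 ± 1.91% in E1C8Δ/Δ and 4.8 ± 0.982% in E1C5Δ/Δ (mean ± SD, n = 3). Since the study reports lower Hoxa13 and Hoxd13 expression in both mutants, neither these cells nor those with Hoxa11 without Hoxa13 need be equivalent between genotypes. The part of this in the contrasts was not tested. For Lmo1 at the Shh position the contrast of both mutants together minus that of Wt was -0.79 ± 0.10, a call that held in all 15 alternatives. The alleles were not alike there. E1C5Δ/Δ had 29.2, 50.2 and 33.1 CPM inside and 102 to 129 CPM outside, whereas the 66.8 and 53.3 CPM inside in E1C8Δ/Δ (80.5 and 78.1 CPM outside) overlapped with the 61.7 and 68.9 CPM of Wt. The contrast was not tested for each allele alone.

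The share of mesenchymal cells with at least 1 UMI of a gene, in cells thinned to 10000 UMIs, was compared by exact two-sided permutation tests over libraries, whose smallest possible p is 0.0119 with 3 against 6 libraries. None of the 8 shares reached 0.05. Lhx2 was detected in 40.2 ± 2.59% of Wt cells, 47.3 ± 2.00% of E1C8Δ/Δ cells and 50.6 ± 8.45% of E1C5Δ/Δ cells (8.78 percentage points higher in both mutants together, exact permutation p = 0.0595). Lmo2 was detected in 11.0 ± 0.12% of Wt cells and in 12 and 12.3% of the mutant cells (exact permutation p = 0.0952). As a background, the median shares of Lhx2, Lhx9 and Lmx1b in erythroid cells at the same 10000 UMIs, a lineage not known to express these genes, were 5.52%, 10.2% and 2.87%. The share of Lmo2 in erythroid cells was 29.9%, above that in mesenchyme.

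Lineages other than mesenchyme were compared with the mesenchyme of the same library by exact sign-flip permutation tests, in libraries with at least 20 cells of a lineage. All 40 gene-by-lineage pairs had an exact p under 0.05, 36 lower than in mesenchyme and 4 higher. Such differences were common, since 74.4% of all pairs of a lineage and a gene of at least 10 CPM on either side had one, 51.3% lower and 23.0% higher. The 3 transcription factor genes were lower in all 5 lineages, with medians of 1.44 to 15.2 CPM, and their highest value relative to mesenchyme was that of Lmx1b in epithelium (13.8 CPM, log2 -1.84 ± 0.32 SD, 0 of 6 libraries higher). Lmo2, a cofactor with a known role in blood and vessel formation, was higher in endothelium, where the 7 libraries had 250 to 295 CPM (median 261; log2 3.60 ± 0.10, exact p = 0.0156, the smallest possible). It was also higher in myeloid cells (median 106 CPM; 2.37 ± 0.21, 6 of 6 libraries, exact p = 0.0312) and in erythroid cells (37.4 CPM; 0.82 ± 0.20, 7 of 7). Ldb2 was higher in endothelium alone (75.1 to 126 CPM, median 90.7; 1.76 ± 0.28, 7 of 7). The medians of Ldb1 were 31.9 to 68.9 CPM and those of Lmo4 26.3 to 138 CPM in the 5 lineages.

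**Figure D5:**
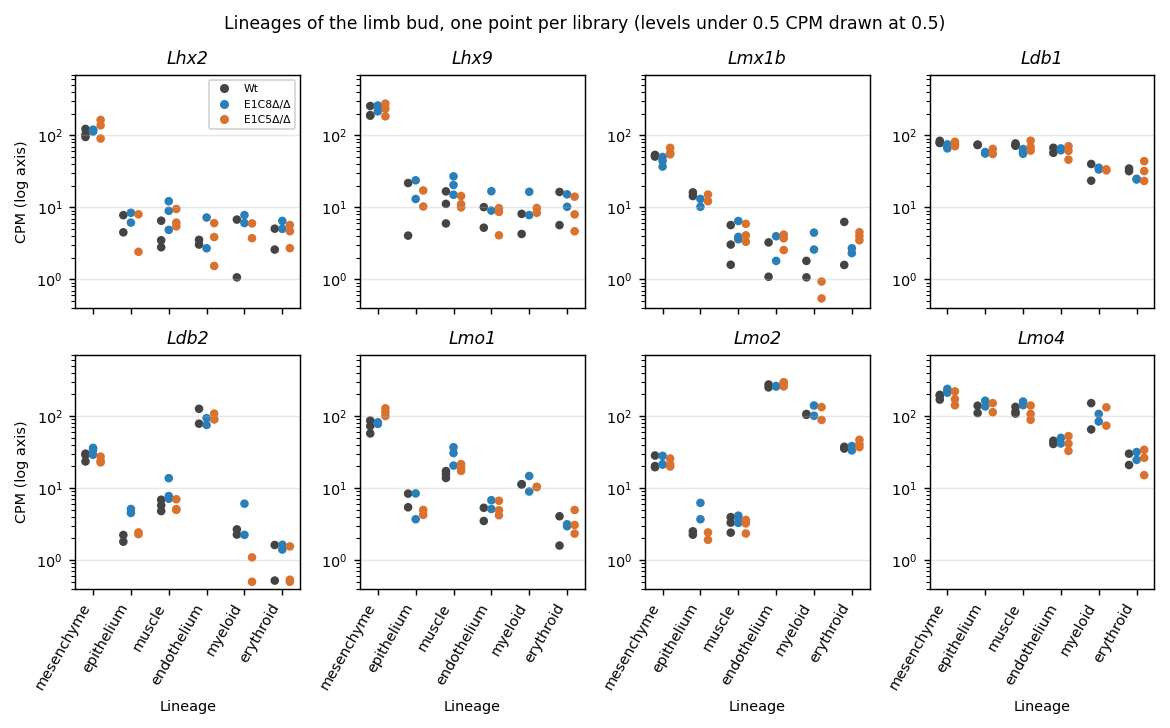
Level of each gene in mesenchyme, epithelium, muscle, endothelium, myeloid and erythroid cells, in CPM on a log axis. Points are libraries, and values under 0.5 CPM are drawn at 0.5. Lmo2 and Ldb2 are highest in endothelium (medians of 261 and 90.7 CPM) and the 3 transcription factor genes in mesenchyme.

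A list of 16 further genes of the same system was examined, covering other LIM-homeodomain genes, Lmo3, the LDB-binding SSBP genes, the ubiquitin ligase gene Rlim, and Wnt7a and En1, which pattern the dorsal and ventral ectoderm. In the mesenchyme the SSBP genes were expressed, with Ssbp3 at 311 to 432 CPM, Ssbp4 at 93.5 to 139 CPM and Ssbp2 at 63.2 to 120 CPM over the 9 libraries, and Rlim at 55.2 to 82.9 CPM. The other 12 genes stayed at or below 2.48 CPM. Of the 13 genes tested, 0 passed the threshold between both mutants and Wt by edgeR, and 1, Lhx1 at 0.00 to 0.159 CPM, had an unadjusted p under 0.05. DESeq2 called 0 of the 6 genes to which it gave an adjusted p. Rlim was left out as X-linked. Over the 11 Wt positions Ssbp2 was higher at 3 and lower at 5, among them the Asb4/Msx1 (-0.61 ± 0.05) and Shh (-0.71 ± 0.07) cells on the lower side and the Gsc/Creb5 cells (0.54 ± 0.06) on the higher side. Ssbp4 was higher in Asb4/Msx1 cells (0.46 ± 0.04) and lower in Emx2 cells (-0.63 ± 0.05). Ssbp3 differed by only -0.24 to 0.18 over all 11 positions, but passed the threshold as higher at 4 and as lower at 4.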

How the data were processed

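Forelimb buds of 3 Wt, 3 E1C8Δ/Δ and 3 E1C5Δ/Δ libraries were profiled on the 10x Genomics 3′ v3.1 platform. The authors made the deposited matrices of UMI counts per gene and barcode with Cell Ranger 6.0.1 on mm10 with default settings. The submitters' processing notes list Seurat 4.3.0.1 for the further analysis, while the methods of the study name a later release of Seurat. No normalization had been applied to the deposited counts. Genotypes were taken from the sample labels, and libraries, which the study describes as independent biological replicates, were the unit of every test. P-values of genotype comparisons measure the spread between these libraries. Those of contrasts between positions and of lineages against mesenchyme measure how far the difference within a library varied from library to library.

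A barcode was kept if it held over 2500 genes, under 200000 UMIs and under 10% mitochondrial UMIs. Doublets were scored against simulated doublets and removed at a rate of 0.8% per 1000 barcodes. Cells with mesenchymal markers and 3 or more markers of another lineage were removed as mixed. Counts were summed per library over mesenchymal cells, over cells inside and outside each position, and over other lineages, with at least 20 cells per library. Position markers had to reach minimums of 1 to 5 UMIs after thinning each cell to 10000 UMIs. These minimums were set after the distribution of the markers had been seen. The fit across all genes used edgeR 4.0.16 (TMM normalization, filterByExpr, quasi-likelihood F-test, Benjamini-Hochberg adjustment, R 4.3.3), on all 9 libraries together. The gate fits held library as a block. The tests did not include the 1809 X- and Y-chromosomal features, as sex differed between libraries. Lineages and shares of cells were compared by exact permutation tests over libraries (scipy 1.17.1), with a pseudocount of 1 CPM on the log2 scale for lineages.

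On simulated data for both mutants against Wt (16235 genes, 200 changed by 1 on the log2 scale) 67.5% of the changed genes were recovered with 12 false calls. For the Asb4/Msx1 contrast in Wt (13980 genes) 88% were recovered with 15 false calls. Alternatives were DESeq2 1.42.0, RLE scaling, no filter, a replicate block, sex as a covariate, leaving out each library, keeping doublets or mixed cells, positions on all UMIs, and thinned sums. Leaving out both smallest libraries was chosen after seeing the data. The 8 genes, the list of 16 related genes and the positions were chosen with earlier results of these data known. Genes named besides these were Grem1 and, for each member, the 3 genes with the highest correlation of Wt means over positions, of which 1 is not reported here. Nearest genes are those among the genes compared, by their places in GENCODE on GRCm38, which placed 32158 of 32289 features.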

Additional observations from a re-analysis of the deposited data

Results flagged for a closer look

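In 10 comparisons the contrast between a position and the other mesenchymal cells differed between the mutants and Wt by an interaction term in edgeR's quasi-likelihood fit (values are the contrast of the mutants minus that of Wt, log2 scale). For Lhx2 these were the Asb4/Msx1 (-0.53), Grem1 (0.36) and Shh (-0.30) positions. The Shh value of Lhx2 passed the threshold in only 4 of 15 alternatives. For Lmo2 they were the Hoxa13/Hoxd13 (-0.67), Shh (-0.51), Grem1 (-0.44), Asb4/Msx1 (0.79) and Hoxa11 without Hoxa13 (0.93) positions. The remaining ones were Lmo1 at the Shh position (-0.79) and Ldb2 in Grem1 cells (0.39), which was lost without Wt replicate 1 (0.35, adjusted p = 0.0809). In the Shh position Wt and E1C8Δ/Δ had 2 libraries each, and the part of sex, which differs between the groups, was not tested in these contrasts. Several position markers, among them Grem1, Shh, Asb4, Msx1, Hoxa13 and Hoxd13, are themselves reported by the study as altered in the mutants.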

How the results depend on the processing

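Numbers of genes called in the mesenchyme changed with the tool for both mutants against Wt (from 0 to 1 with DESeq2) and for E1C8Δ/Δ against Wt (from 0 to 2 with DESeq2). Over all 16235 genes tested these numbers rose from 374 to 1025 and from 1488 to 2238. For E1C5Δ/Δ against Wt the 1 call fell to 0 with a replicate block, a sex covariate, thinned sums and without both smallest libraries, and to 0 to 1 when single libraries were left out. Over all genes the 247 calls became 97, 14, 124 and 54, respectively, and 56 to 273 without single libraries. For E1C5Δ/Δ against E1C8Δ/Δ the number of the 8 genes called was 1 to 3 without single libraries and 2 with the replicate block. Over all genes it was 296 to 2114 and 668, beside 1489. Within positions, both mutants against Wt gave 6 calls with DESeq2, 11 without a filter on low counts, 2 with doublets kept, 2 with positions on all UMIs, 0 with a sex covariate, 0 without both smallest libraries, 1 with the replicate block and 1 to 5 without single libraries, beside 1 in the main analysis. Counts over all genes inside positions are not given for these alternatives. In the mesenchyme, calls over all genes for both mutants against Wt were 374 in the main analysis and 1025 with DESeq2. They were 537 without the filter, 412 with doublets kept and 356 with positions on all UMIs. A sex covariate left 2, leaving out both smallest libraries 45, the replicate block 95, and leaving out single libraries 119 to 872. Contrasts that differed by genotype numbered 4 with DESeq2 and 6 to 13 without single libraries, beside 10 in the main analysis. There 0.494% of all gene-by-position contrasts passed. The shares over all genes under these alternatives are not given, so the change of these counts cannot be set against them. Gene-by-lineage pairs numbered 7 to 40 without single libraries, beside 40, because fewer libraries raise the smallest exact p. The cause of the other changes was not tested.

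Of 3031 alternatives for single genes 2672 kept direction and side of the threshold, 312 lost the call, 3 gained one and 44 changed sign. Sign changes of differences near 0 in the mesenchyme were, for both mutants against Wt, Lmx1b with thinned sums (0.09), Lmo2 with doublets kept (-0.03) and positions on all UMIs (-0.02), and Ldb2 with a sex covariate (-0.02). For E1C8Δ/Δ against Wt they were Lmo2 with positions on all UMIs (-0.02) and Lmo1 without both smallest libraries (-0.02), and for E1C5Δ/Δ against Wt Lmo2 with doublets kept (-0.07) and positions on all UMIs (-0.03). For E1C5Δ/Δ against E1C8Δ/Δ they were Lhx9 with positions on all UMIs (-0.02) and thinned sums (-0.08), and Lmo2 with doublets kept (-0.07), positions on all UMIs (-0.01) and thinned sums (-0.07). Without single libraries, both mutants against Wt ranged from -0.06 to 0.02 (Lmx1b), -0.05 to 0.20 (Lmo2) and -0.00 to 0.13 (Ldb2). E1C8Δ/Δ against Wt ranged from -0.08 to 0.19 (Lmo2) and -0.03 to 0.25 (Lmo1), and E1C5Δ/Δ against Wt from -0.09 to 0.21 (Lmo2) and -0.14 to 0.11 (Lmo4). E1C5Δ/Δ against E1C8Δ/Δ ranged from -0.08 to 0.12 (Lhx9) and -0.11 to 0.12 (Lmo2). With positions on all UMIs, Wt contrasts turned for Lmx1b in Shh cells (0.02), Lhx2 in Pax1 cells (0.04), Lhx2 in cells with Ldb1 (0.25) and Lmx1b in cells with Lmo4 (0.05). Shares of cells on all UMIs turned for Lmx1b (-3.28 percentage points), Ldb2 (-5.23), Lmo2 (-0.156) and Lmo4 (-0.993).

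Replicate numbers did not pair the libraries (correlations of same-numbered libraries of -0.147 to 0.086). With the replicate block the E1C5Δ/Δ difference of Lmo1 was 0.72 (adjusted p = 0.0577, edgeR). With 3 libraries per genotype, 1 sex in Wt and overlapping positions, small differences are beyond these data.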
